A study of Mus musculus with 33 samples.

Results

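Lungs taken 28 days after a single dose of carbon black were compared with lungs of vehicle mice killed on the same day. The members were the 5 arrays labelled as exposed at day 28 and the 6 labelled as control at day 28, 11 of the 33 arrays of the series, and every mouse miRNA on them. Of 611 mouse miRNAs on the array, 171 passed the filter and were tested, being above background on 4 or more arrays in some group of the series.

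Each array held the RNA of 1 lung sample from a female, non-pregnant C57BL/6 mouse, an inbred strain. Exposed mice had received 0.162 mg of Printex 90, a carbon black of nanosized particles, by intratracheal instillation (into the windpipe). Control mice had received 0 mg, the vehicle alone, which was NaCl in MilliQ water with acellular BAL (cell-free bronchoalveolar lavage fluid). The other arrays of the series came from mice killed at day 1 (6 control, 6 exposed) or day 3 (6 control, 4 exposed). The labels give no age. The design of the series speaks of individual mice, so an array was treated as 1 animal. RNA of the whole lung was used, so fewer cells of a type and less of a miRNA per cell cannot be told apart in any value below.

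A miRNA is a short RNA that guides a silencing complex to messenger RNAs. It pairs with them mainly through its seed, bases 2 to 8 of the mature strand, and miRNAs with 1 seed can share targets. In inflamed tissue miR-146a and miR-146b are induced through NF-kB and dampen that pathway, miR-155 rises in activated macrophages and lymphocytes, and miR-21 is abundant in injured and fibrotic tissue. In lung, miR-126 marks endothelium, the miR-200 family marks epithelium, and miR-223 marks neutrophils and other myeloid cells.

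The mature strands of the 4 inflammation miRNAs that were tested are shown 5′ to 3′ with the seed in capitals, because the results turn on them. They come from RefSeq (build GRCm38.p6), in which 140 of the 171 tested miRNAs were matched to a mature strand.
miR-21: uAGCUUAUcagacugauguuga
miR-146a: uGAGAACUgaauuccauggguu
miR-146b: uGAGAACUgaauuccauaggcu
miR-155: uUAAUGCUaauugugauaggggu
The seed GAGAACU is the same in miR-146a and miR-146b. The miR-21 strand lies at chr11:86584120-86584141 on the minus strand within Vmp1, and miR-155 at chr16:84714143-84714165 on the plus strand within Mir155hg. The miR-146a strand lies at chr11:43374435-43374456 on the minus strand, and miR-146b at chr19:46342790-46342811 on the plus strand.

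The mirtrons, miRNAs cut from short introns by splicing, are shown for the 3 tested members described below.
miR-702: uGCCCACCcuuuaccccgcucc
miR-1224: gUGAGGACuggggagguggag
miR-877*: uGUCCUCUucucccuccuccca
Their seeds differ. The strands lie within Plod3 at chr5:136991520-136991541, within Vwa5b2 at chr16:20604452-20604472, and within Abcf1 at chr17:35960731-35960752.

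Among lower miRNAs, let-7c and miR-195 are shown because each belongs to a seed family whose tested members had changes at or below 0.
let-7c: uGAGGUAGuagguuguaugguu
miR-195: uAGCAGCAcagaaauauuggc
miR-497: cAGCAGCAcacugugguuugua
The strands of miR-195 (chr11:70235062-70235082) and miR-497 (chr11:70234730-70234751) lie close together on the plus strand. The seed AGCAGCA is the same in both, and let-7c is made from more than 1 gene.

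Arrays differed in brightness before scaling. Over the 156 probes above background on every array, the 75th percentile of the signal lay between 448 and 1095 units in exposed lungs and between 633 and 1211 in vehicle lungs. Vehicle arrays were 1.53-fold brighter on average (two-sided exact permutation p = 0.0606, n = 5 and 6), and 1.65-fold by the median over these probes (exact p = 0.0433). Within slides the log2 difference was -0.54 on average (exact p = 0.250, n = 5 pairs), and on slide 2 the exposed array was the brighter, at 1095 against 633 units. Between 126 and 193 mouse miRNAs were above background on an exposed array and between 141 and 187 on a vehicle array (exact p = 0.195, and 0.375 within slides). Each exposed array shared a slide with 1 vehicle array, and vehicle replicate 32 had no partner. On every slide the vehicle array of day 28 sat in row 1, column 2, and the exposed array in row 2, column 4. Exposure therefore cannot be told apart from position on the slide. The labelled tissue was checked against its markers: the endothelial miR-126-3p was above background on all 11 arrays, whereas 0 of 7 brain miRNAs passed the filter. Of those 7, 6 were above background on no array of day 28. Markers of other tissues did pass the filter, namely 3 of 8 of heart and skeletal muscle and the liver miRNA miR-122. The muscle marker miR-1 was above background on all 11 arrays, so the check does not set lung apart from every other tissue.

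The comparison of the 2 groups gave small changes for most miRNAs. Of the 171 tested, 74 had a log2 change above 0 and 97 below it, 43.3% and 56.7%, with a median of -0.03. Limma's test with Benjamini-Hochberg adjustment over all 171 called 0 of them (0%), and the smallest adjusted p was 0.157, for miR-21. At an unadjusted limma p under 0.05 there were 9 higher (5.26%) and 4 lower (2.34%) miRNAs. The 9 were miR-21, miR-146b, miR-146a, miR-689, miR-155, miR-702, miR-1224, miR-10b and miR-877*, and the 4 were miR-335-5p, miR-676, miR-375 and miR-195. Per miRNA exact permutation tests over the 462 ways to split 11 arrays gave an adjusted p of 0.247 at the least. That was for 3 miRNAs whose groups did not overlap, at the smallest p the design allows, 0.00433. Among them miR-689 passed the filter through exposed groups alone, so its value supports nothing. Of the 9 higher miRNAs, miR-10b, miR-1224, miR-155, miR-146a and miR-146b had an unadjusted exact permutation p above 0.05.

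**Figure D1:**
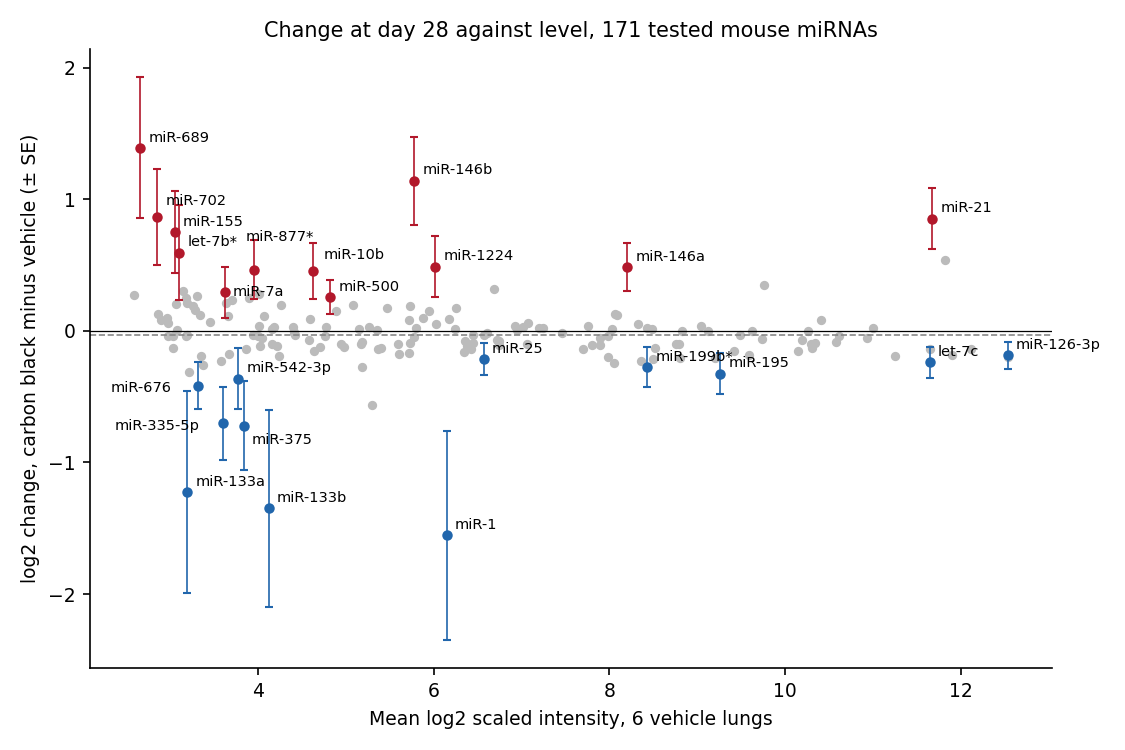
The change at day 28 (exposed minus vehicle, log2, bars ± SE) of each of 171 miRNAs against its mean log2 intensity in 6 vehicle lungs, with the 12 higher (red) and 12 lower (blue) miRNAs of smallest p named and the median of all as a dashed line. The level is the brightness of a miRNA's own probe and does not rank miRNAs by abundance. Most points lie near 0, miR-21, miR-146b and miR-146a stand above at middle and high brightness, and miR-1, miR-133a and miR-133b stand below with wide errors.

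Among miRNAs known to be induced in inflammation, values were higher in most exposed lungs. Of the 12 on this list, 4 were tested, all 4 were higher in exposed lungs (43.3% of all tested were), and 8 were above background on no array of day 28. Their median log2 change was 0.80, and it stayed above 0 in 9 of 9 ways of scaling or reading the signal (0.19 to 0.93). The list was chosen with earlier results of these data known, and the 9 readings reuse the same arrays. The count and the median are therefore no independent support. None of the 4 passed the threshold, so each value below is a difference of means and not a call.

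The level of miR-21 (log2 scaled intensity, as for all levels below) was 13.01, 11.57, 12.28, 13.50 and 12.25 in exposed replicates 8, 12, 20, 23 and 30. It was 11.83, 11.74, 11.72, 11.57, 11.55 and 11.60 in vehicle replicates 6, 10, 18, 22, 28 and 32. Exposed replicates 23 and 8 were the highest, replicate 12 lay inside the vehicle range, and the other exposed arrays lay above every vehicle array. The log2 change was 0.85 ± 0.23 (SE, 95% interval 0.38 to 1.33), or 1.81-fold, with a limma adjusted p of 0.157. A second probe for miR-21 gave 1.01. The SE and interval rest on a spread pooled over all 6 groups of the series (residual SD 0.40). The SD was 0.75 in exposed and 0.11 in vehicle lungs of day 28, so they do not measure the exposed spread. The unadjusted exact permutation p was 0.0216.

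For miR-146b the exposed levels were 8.11, 5.49, 6.06, 7.97 and 6.96 in the same order of replicates, and the vehicle levels 5.85, 5.97, 5.59, 5.81, 5.72 and 5.70. Replicate 12 lay below every vehicle array, and the other 4 lay above all of them. This gave a log2 change of 1.14 ± 0.34 (SE, 95% interval 0.45 to 1.83), or 2.20-fold, with a limma adjusted p of 0.165. Again the SE and interval rest on the pooled residual SD, 0.58, and not on the exposed SD of 1.15 or the vehicle SD of 0.13. By exact permutation the unadjusted p was 0.0649.

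The paralog miR-146a had exposed levels of 9.23, 7.92, 8.17, 9.27 and 8.83 and vehicle levels of 8.03, 8.22, 8.06, 8.36, 8.26 and 8.28. Here 3 exposed arrays lay above the vehicle range, replicate 20 inside it and replicate 12 below it. The difference of means was 0.48 ± 0.18 (SE, log2), or 1.40-fold, with a limma adjusted p of 0.563. It was -0.13 without scaling between arrays, where the median of all tested miRNAs was -0.65. The pooled residual SD was 0.31, against an SD of 0.61 in exposed and 0.13 in vehicle lungs. Exact permutation gave an unadjusted p of 0.108.

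The dimmest of the 4 was miR-155, above background on 4 of 5 exposed and 4 of 6 vehicle arrays. Its exposed levels were 4.38, 1.92, 4.46, 4.55 and 3.72, and its vehicle levels 2.87, 3.04, 3.21, 2.99, 3.05 and 3.16. Replicate 12 was again the lowest of all arrays, and the other 4 exposed arrays lay above every vehicle array. The log2 change was 0.75 ± 0.31 (SE), or 1.68-fold, with a limma adjusted p of 0.563. Its exposed SD of 1.10 was also larger than the pooled residual SD of 0.52, and its vehicle SD was 0.12. In the exact permutation test the unadjusted p was 0.104.

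**Figure D2:**
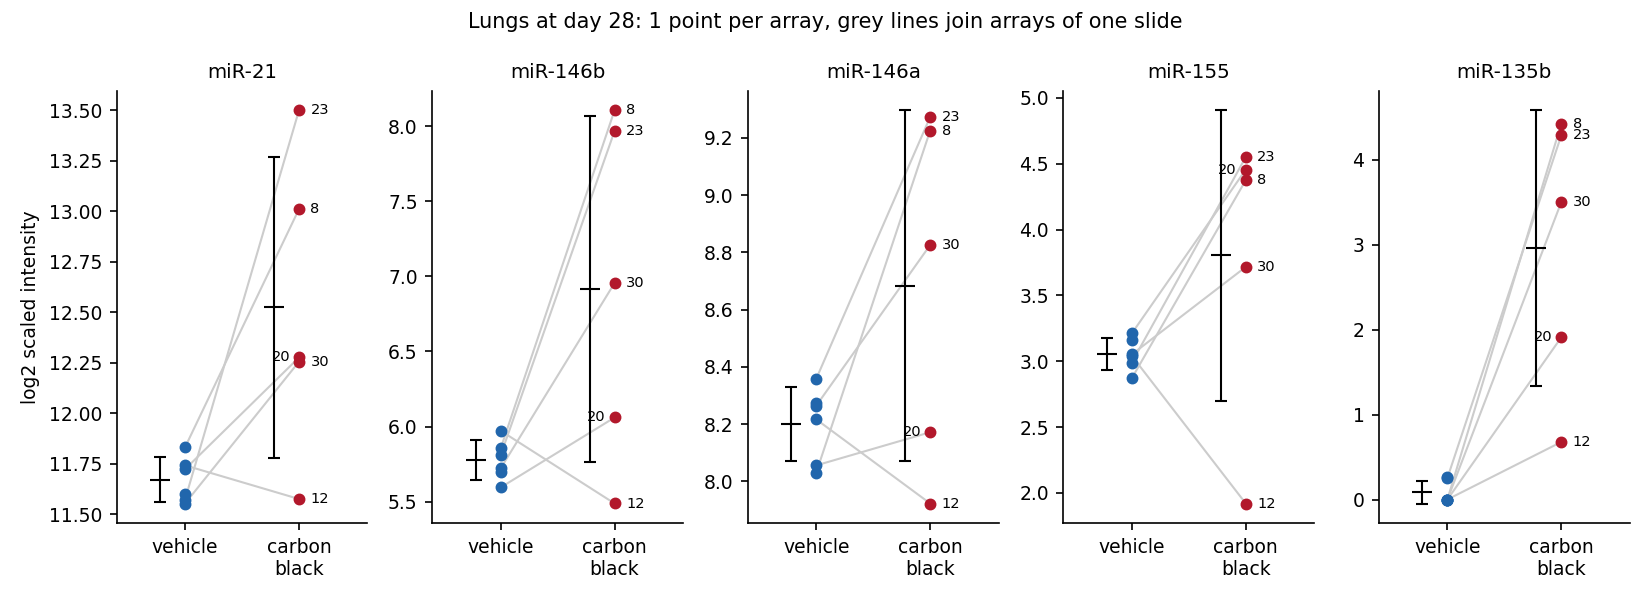
Log2 scaled intensity of 5 miRNAs on each array of day 28, vehicle (6, blue) beside carbon black (5, red, with replicate numbers); bars show mean ± SD and grey lines join arrays of the same slide. Exposed replicate 12 lies within the vehicle arrays for miR-21 and below them for miR-146b, miR-146a and miR-155, while replicates 8 and 23 lie far above them in these 4 panels. For miR-135b all 5 exposed arrays lie above the vehicle arrays.

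The exposed arrays thus kept a similar order across these 4 miRNAs. Replicates 8, 23 and 30 exceeded every vehicle array in 4 of 4, replicate 20 in 3, and replicate 12 in 0. Within slides, each of the 4 was higher in the exposed array on 4 of 5 slides and lower on slide 3, which holds replicate 12. Of all tested miRNAs, 16.4% were higher on 4 or 5 slides. The difference on that slide was largest for miR-155 (-1.12), followed by miR-146b (-0.48), miR-146a (-0.29) and miR-21 (-0.17). On slide 7, which holds replicate 23, the difference was 1.56, 2.16, 0.91 and 1.93 in the same order. In brightness replicate 23 was the dimmest exposed array at 448 units and replicate 8 the brightest at 1095, with replicate 12 at 481, and its part in this order was not tested. Replicate 12 was low outside these 4 miRNAs too. Over all 171 tested, it lay above every vehicle array in 8 and below every one in 68. The other exposed arrays lay above in 36 to 50 and below in 16 to 46. A vehicle array lay below every other vehicle array in 11 to 45. Lying below every vehicle array was thus not particular to the inflammation miRNAs in replicate 12, but the count does not give the size. Its median distance from the vehicle mean was -0.12 log2 units over the 119 miRNAs above background on all arrays of day 28.

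Leaving out exposed replicate 12 moved all 4 past the threshold in limma. The change of miR-155 was then 1.22 (adjusted p = 0.000974), that of miR-21 1.09 (adjusted p = 0.00204), that of miR-146b 1.50 (adjusted p = 0.0023) and that of miR-146a 0.67 (adjusted p = 0.0200). The left-out array is the one that opposes the others, so these p-values do not stand beside the 5-array result as support. With slide as a fixed block the adjusted p was 0.234 for miR-21 and 0.169 for miR-146b.

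A related gene outside the filter stood further apart. miR-135b is an miRNA of epithelial tissues reported to be induced by inflammatory signals. Its exposed levels were 4.43, 0.68, 1.91, 4.29 and 3.50 in replicates 8, 12, 20, 23 and 30, and it was at the floor of 0 in 4 vehicle arrays and at 0.25 and 0.26 in replicates 22 and 32. All 5 exposed arrays lay above all 6 vehicle arrays of day 28, and the order of the exposed arrays resembled that of miR-146b. Vehicle lungs of day 28 had the lowest mean of any group of the series, at 0.09. Vehicle means were 1.53 at day 1 and 0.78 at day 3, with maxima of 2.28 and 1.88. Exposed replicates 12 and 20 lay below the vehicle maximum of day 1. miR-135b was above background on 3 of 5 exposed arrays of day 28 and on 0 of the other 28 arrays of the series, so it missed the filter of 4 arrays.

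Because it was above background on no vehicle array, only a bound can be given for its fold, and that was at least 1.13-fold higher in exposed lungs. Such a bound compares the brighter group's mean with the lowest signal above background on each dimmer array, or the probe's own where higher. The measured means were 2.96 ± 1.62 (SD, n = 5) and 0.09 ± 0.13 (SD, n = 6). A limma fit over all 611 mouse miRNAs without the filter called 1 (0.164%), which was miR-135b, at a log2 change of 2.88 ± 0.51 (SE) and an adjusted p of 0.00292. That change depends on how values near the background are treated: it was 0.45 with a floor of 10, 0.82 after normexp background correction and 0.25 in the authors' deposited series table. Its second probe showed the same order, at 3.55, 0, 1.23, 3.46 and 2.56 in exposed lungs and at most 0.01 in vehicle lungs. The 2 other entries of the miR-135 list were above background on no array of day 28.

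At day 28 exposed lungs varied more among themselves than vehicle lungs did, but the vehicle lungs of day 28 were the least variable of the 6 groups of the series. In a limma fit with 1 variance per group the relative variance was 0.467 in vehicle and 1.13 in exposed lungs of day 28. It was 2.03 and 1.29 in the vehicle lungs of days 1 and 3, and 0.751 and 0.968 in the exposed lungs of those days. At day 28 the SD over exposed arrays was the larger in 128 of 171 miRNAs, with a median of 0.24 against 0.16 in vehicle lungs. Among the 119 miRNAs above background on all 11 arrays it was larger in 88, with medians of 0.19 and 0.13. The ratio of the SDs was highest for miR-155 (9.02), miR-146b (8.70), miR-21 (6.71), miR-20a (6.07), a member of the growth-linked cluster from miR-17 to miR-92a, and miR-10b (5.55). For the first 3 the exposed SD includes the low replicate 12 described above. The root mean square distance of an exposed array from the mean of the vehicle arrays was 0.29 to 0.46 log2 units. For a vehicle array measured against the other vehicle arrays it was 0.19 to 0.30.

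**Figure D3:**
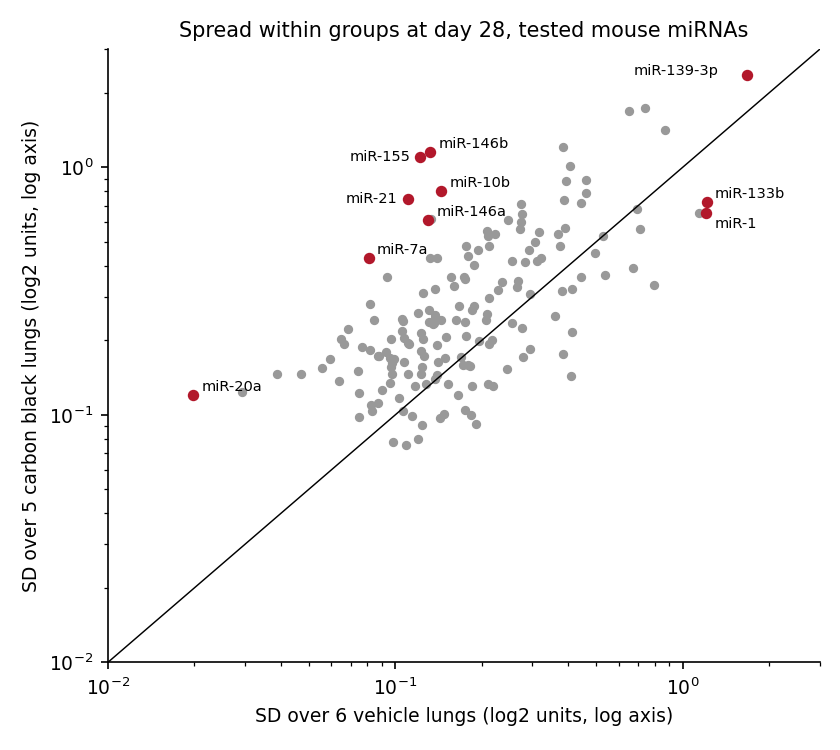
SD over 5 carbon black lungs against SD over 6 vehicle lungs for 171 miRNAs, both in log2 units on log axes, with a line of equality. Points above the line spread more in exposed lungs, as 128 of 171 do; miR-155, miR-146b and miR-21 lie furthest above it, and miR-1 and miR-133b lie below it.

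The 4 mirtrons on the array gave 3 tested members, and all 3 were higher in exposed lungs. miR-877*, within Abcf1, had exposed levels of 4.21, 4.50, 4.66, 4.55 and 4.21 and vehicle levels of 4.14, 4.12, 3.76, 4.02, 4.00 and 3.73. The groups did not overlap, which held for 3 of 171 miRNAs (1.75%), and the difference was positive on 5 of 5 slides, which held for 6 (3.51%). The log2 change was 0.46 ± 0.23 (SE), or 1.38-fold, with a limma adjusted p of 0.624. It was higher in each of 2 further probes, at 0.46 and 0.52, but -0.15 without scaling between arrays. Without scaling the median of all tested miRNAs was -0.65.

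miR-702, also of this group, had exposed levels of 2.91, 4.07, 4.09, 4.15 and 3.36 and vehicle levels of 3.11, 2.86, 2.71, 2.75, 3.10 and 2.61. Only replicate 8 among exposed arrays lay within the vehicle range. It was above background on 4 of 5 exposed and 2 of 6 vehicle arrays of day 28. Its log2 change was 0.86 ± 0.37 (SE, limma adjusted p = 0.563), or 1.82-fold, measured against vehicle arrays mostly not above background. miR-702 and miR-689 were the 2 miRNAs that passed the filter through exposed groups alone, whereas 14 passed through vehicle groups alone. The counts and medians of their lists therefore support nothing. miR-1224 had a log2 change of 0.49 ± 0.23 (SE, limma adjusted p = 0.624), with exposed levels from 5.64 to 6.99 and vehicle levels from 5.57 to 6.49. Its change was -0.13 without scaling, where the median of all tested miRNAs was -0.65. The median of the 3 mirtrons was 0.49, which is the value of miR-1224. It exceeded that of all tested miRNAs by 0.11 to 0.56 in the 9 ways of scaling or reading the signal. Each of these medians is counted with miR-702, so the range is no support either.

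Entries whose status as miRNAs is doubtful, such as fragments of other RNAs, gave 3 tested members of 9, again all higher. miR-689 had exposed levels of 4.66, 3.60, 4.16, 3.92 and 3.93 and vehicle levels of 3.45, 3.35, 1.83, 2.25, 2.94 and 2.18, with no overlap and a positive difference on 5 of 5 slides. Since it passed the filter through exposed groups alone, the lack of overlap and the slide count support nothing. It was above background on 4 of 5 exposed and 3 of 6 vehicle arrays, and its log2 change of 1.39 ± 0.54 (SE, 2.62-fold, limma adjusted p = 0.563) is a measured difference that the dim vehicle arrays leave uncertain. miR-720, a bright entry, had exposed levels from 11.85 to 12.70 and vehicle levels from 11.62 to 12.04, a log2 change of 0.54 ± 0.37 (SE). miR-709 had a log2 change of 0.32 ± 0.28 (SE). Without scaling the median of the 3, 0.54, became -0.08, and that of all tested miRNAs was -0.65.

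Other higher miRNAs rested on fewer arrays or were smaller. miR-10b, made from the Hoxd cluster (chr2:74726074-74726096), was at 6.50 in exposed replicate 20 and at 4.58 to 4.93 in the other 4, against 4.44 to 4.84 in vehicle lungs. Its log2 change of 0.45 ± 0.22 (SE) became 0.10 without replicate 20. miR-7a, which acts in endocrine and neural cells, was at 4.42 and 4.33 in replicates 8 and 23 and at 3.46 to 3.70 in the other 3, within or near the vehicle range of 3.50 to 3.71. let-7b*, the passenger strand of let-7b, had exposed levels of 3.09 to 4.16 against 2.68 to 3.47 and was higher on 5 of 5 slides. Its log2 change was 0.60 ± 0.36 (SE), while its partner strand let-7b had -0.19 ± 0.13. miR-500 differed by 0.26 ± 0.13 (SE). Limma's adjusted p was 0.624 to 0.859 for these 4. All 4 had negative changes without scaling, where the median of all tested miRNAs was -0.65.

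**Figure D4:**
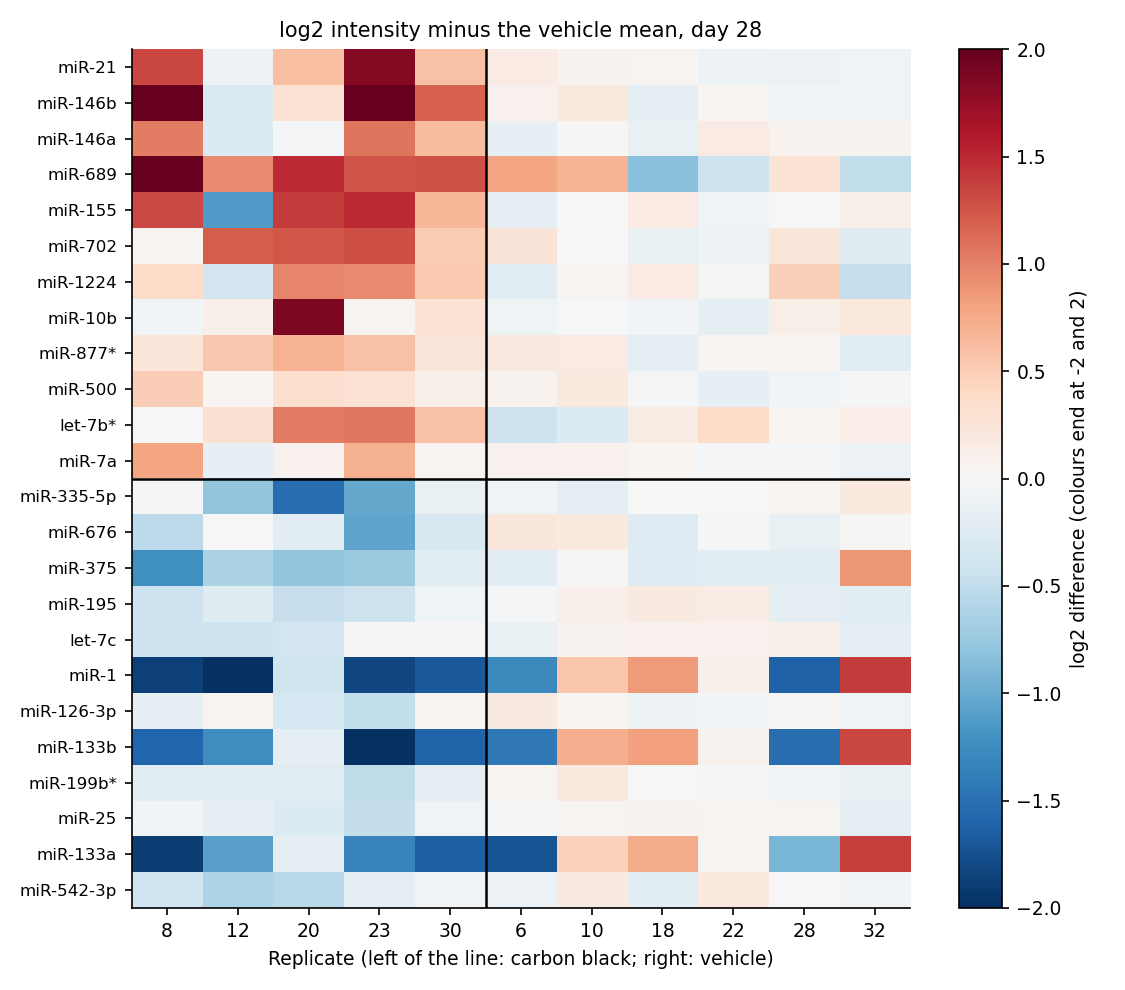
Log2 intensity of the 12 higher and 12 lower miRNAs of smallest p on each array of day 28, as the difference from the mean of the 6 vehicle lungs (red above, blue below, colours ending at -2 and 2). The block of miR-21, miR-146b, miR-146a and miR-155 is red in exposed replicates 8, 23 and 30 and pale or blue in replicate 12; the miR-1, miR-133a and miR-133b lines are blue in most exposed lungs and in vehicle replicates 6 and 28.

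Several dim miRNAs had lower values in exposed lungs together with fewer arrays above background. miR-335-5p, made from an intron of the imprinted gene Mest, had exposed levels of 3.58, 2.81, 2.09, 2.58 and 3.45 and vehicle levels of 3.40 to 3.80. It was above background on 2 of 5 exposed and 6 of 6 vehicle arrays, at a log2 change of -0.70 ± 0.28 (SE, limma adjusted p = 0.563). miR-375, a marker of secretory and endocrine epithelium, had exposed levels of 2.61 to 3.62 and vehicle levels of 3.59 to 4.73, a log2 change of -0.72 ± 0.34 (SE, limma adjusted p = 0.624). Only replicate 30 of the exposed arrays reached into the vehicle range. miR-676 had -0.42 ± 0.18 (SE), and miR-542-3p, from the X-linked cluster with miR-322, had -0.36 ± 0.23 and was lower on 5 of 5 slides.

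In all, the share of arrays above background differed by over 0.5 between the groups for 11 of 171 tested miRNAs. In all 11 it was higher in vehicle lungs, the brighter arrays. The others were miR-133b, miR-133a, miR-872, miR-210, miR-139-3p, miR-1196 and miR-18a. Of the 11, miR-676, miR-133a, miR-210 and miR-1196 passed the filter through vehicle groups alone, which favours a higher share there. Of all tested, 14 passed through vehicle groups alone and 2 through exposed groups alone. The shared direction of the 11 therefore supports nothing. miR-210, the miRNA of the hypoxia response, was above background on 1 of 5 exposed and 6 of 6 vehicle arrays, although its levels overlapped, at 2.87 to 3.66 and 3.29 to 3.85. After normexp background correction all 11 had positive changes, but the median of all tested miRNAs was then 0.27. miR-133b (0.08) and miR-133a (0.25) stayed below that median, and the others of the 11 lay above it. miR-1196, at 0.08 otherwise, had a negative change in 6 of 9 readings of the signal. The part of brightness in these values was not tested.

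Markers of heart and skeletal muscle had low values in most exposed lungs. Of 8 on the array 3 were tested, all 3 with lower values in exposed lungs (56.7% of all tested), and 5 were above background on no array of day 28. miR-133a passed the filter through vehicle groups alone, where it was high at day 28. The count of 3 and the list's median therefore support nothing. miR-1 had exposed levels of 4.28, 4.14, 5.74, 4.33 and 4.48 and vehicle levels of 4.85, 6.71, 7.00, 6.26, 4.53 and 7.55. Vehicle replicates 6 and 28 were as low as exposed arrays, so the groups overlapped, although the slide partner was higher on 5 of 5 slides. The log2 change was -1.55 ± 0.79 (SE, limma adjusted p = 0.629), with a 95% interval of -3.17 to 0.06.

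The same vehicle arrays were low for the other muscle miRNAs. miR-133b was at 2.70 and 2.60 in vehicle replicates 6 and 28 and at 4.20 to 5.45 in the other 4, against 1.99 to 3.93 in exposed lungs. It was above background on 0 of 5 exposed and 4 of 6 vehicle arrays and at least 1.58-fold lower in exposed lungs, with measured means of 2.77 and 4.12 (limma adjusted p = 0.737). miR-133a had the same counts of arrays and no fold beyond its bound. The list's median of -1.35 is that of miR-133b, a measured difference from a group below background. It was 0.08 after normexp correction. It lay below the median of all miRNAs in 9 of 9 readings of the signal (-1.84 to -0.20), but each of these is counted with miR-133a. Its summed level was 4.79 to 6.27 in exposed and 5.09 to 8.00 in vehicle lungs.

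The let-7 family, which acts in differentiation and growth control, had 9 of 9 tested members with negative changes (56.7% of all tested), 0 past the threshold. let-7c had exposed levels of 11.23, 11.22, 11.26, 11.66 and 11.66 and vehicle levels of 11.50, 11.71, 11.73, 11.73, 11.74 and 11.44. Replicates 8, 12 and 20 lay below every vehicle array. The log2 change was -0.24 ± 0.12 (SE, limma adjusted p = 0.624), and let-7c, let-7b and let-7g were each lower on 5 of 5 slides, as were 11 of 171 miRNAs (6.43%). The family's median was -0.14 but 0.04 in the authors' deposited series table.

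Of the 6 tested miRNAs with the seed AGCAGCA, which includes miR-15, miR-16, miR-195 and miR-497 and restrains the cell cycle, 4 had values of -0.32 to -0.03, miR-15a and miR-15b were at 0 within 0.01, and 0 passed the threshold. Of all tested miRNAs 56.7% had values below 0. The neighbours miR-195 and miR-497 had the largest changes, -0.32 ± 0.16 (SE) and -0.21 ± 0.15. miR-195 was at 8.80 to 9.17 in exposed and 9.04 to 9.44 in vehicle lungs, with 4 of 5 exposed arrays below the vehicle range. The median of the 6 was -0.07, 0.05 in the authors' deposited series table, and above the median of all in 3 of 9 readings.

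miR-199b*, a strand of the fibroblast-linked miR-199 group, was the third miRNA whose groups did not overlap. Its exposed levels were 8.21, 8.20, 8.20, 7.92 and 8.24 and its vehicle levels 8.49, 8.62, 8.44, 8.39, 8.35 and 8.28. Its log2 change was -0.28 ± 0.15 (SE, limma adjusted p = 0.737), negative on 5 of 5 slides, and a second probe gave -0.32. miR-25, of the cluster within Mcm7, had -0.21 ± 0.12 (SE) and was lower on 5 of 5 slides. It was 0.07 after normexp correction, where the median of all tested miRNAs was 0.27. The 2 endothelial markers went opposite ways. miR-126-3p had -0.19 ± 0.10 (SE), lower on 3 of 5 slides and 0.08 in the authors' deposited series table, and miR-126-5p had 0.25 ± 0.65, so the list's median was 0.03.

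Marker lists of other cell types showed smaller differences, with 0 members past the threshold in any. The 3 myeloid markers were higher, with log2 changes of 0.12 ± 0.22 (SE) for miR-223, 0.35 ± 0.32 for miR-142-3p and 0.15 ± 0.22 for miR-142-5p. Their median of 0.15 lay above the median of all in 9 of 9 readings (by 0.05 to 0.25) but below 0 in 2. Their summed level was 9.96 to 11.03 in exposed and 10.04 to 10.60 in vehicle lungs. Replicate 12, low for the inflammation miRNAs and for many others, had the lowest miR-142-3p of all arrays at 9.44, and replicate 20 the highest at 10.68. The part of myeloid cells in the inflammation values was not tested.

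The 3 red cell markers miR-144, miR-451 and miR-486 had negative changes, with a median of -0.20 that was below 0 in 9 of 9 readings but 0.027 without exposed replicate 23. That array was the lowest array in miR-144 (7.14), miR-451 (11.44) and miR-486 (4.36). The 4 tested markers of ciliated cells and the p53 response were also all negative, with a median of -0.21 (9 of 9 readings below 0) that was -0.053 without vehicle replicate 32 and -0.066 without exposed replicate 8, and 0 had an unadjusted p under 0.05. Of 8 tested epithelial markers 4 were higher and 4 lower, with a median of -0.01. Lymphoid markers were 3 higher and 1 lower with a median of 0.05. Of 4 tested fibroblast markers 2 were higher and 2 lower, at -0.08. In smooth muscle only miR-143 was tested, at 0.02.

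The liver miRNA miR-122 was at 7.18 in exposed replicate 20 and at 2.53 to 4.27 in the other exposed arrays, against 2.85 to 4.89 in vehicle lungs. Replicate 20 was also the array with high miR-10b and, among exposed arrays, the highest miR-1. Whether liver RNA was present was not tested.

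The cluster of miR-322, miR-503, miR-351, miR-542 and miR-450 had 1 higher and 3 lower of 4 tested members, with a median of -0.21 that was 0.39 after normexp correction and -0.10 without exposed replicate 20. The median of all tested miRNAs was 0.27 after that correction. Other families lay closer to the median of all miRNAs. Medians were -0.04 over 5 tested members of the miR-99, miR-100 and miR-125 families and -0.09 over 6 of miR-26, miR-101, miR-103 and miR-107. The median over 5 of miR-130, miR-301, miR-148 and miR-152 was -0.03. All 7 tested members of the clusters of miR-23, miR-27 and miR-24 had negative changes, at -0.14 to -0.04, with a median of -0.09 that was 0.06 in the authors' deposited series table. Of the 5 tested miR-29 strands 2 were higher and 3 lower, with a median near 0 and a range of -0.06 to 0.21. Among them miR-29a, miR-29b and miR-29c, which share the seed AGCACCA and repress collagen genes, gave 1 higher and 2 lower, at -0.06 to 0.08. The value of 0.21 was that of the passenger strand miR-29b*, which has another seed. Of 10 tested members of the cluster from miR-17 to miR-92a and its paralogs 4 were higher and 6 lower, at -0.21 to 0.27. The miR-30 family gave 2 higher and 3 lower, and miR-221 and miR-222 both had negative changes, -0.09 and -0.13. Of 49 miRNAs of the imprinted Dlk1-Dio3 cluster, 49 were above background on no array of day 28.

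Among 24 seeds with at least 2 tested miRNAs, GAGAACU of miR-146a and miR-146b had the highest median, 0.81, and the next was 0.12. Where both strands of a precursor were tested they could differ: miR-139-5p had 0.24 and miR-139-3p -0.56, the latter with exposed levels from 2.42 to 7.37. Of 18 tested star strands, 8 were higher and 10 lower. The base composition of the mature strand was set beside the change without a test. Of 22 miRNAs with at least 55% G and C, 15 were higher, at a median of 0.04, and of 30 with under 40% 10 were higher, at a median of -0.06. The median vehicle level was 4.23 in the former and 6.66 in the latter. The slope was 0.03 log2 units per 10 percentage points over the 104 miRNAs above background on all arrays of day 28, and -0.03 in the authors' deposited series table. Single vehicle arrays, each measured against the other vehicle arrays, had slopes of -0.08 to 0.05, so a slope of this size was within their range.

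The last question was whether the change at day 28 differed from the change at day 1 or day 3, tested as a difference of changes in the same model. Against day 1, limma called 0 of 171 (0%), with 12 at an unadjusted p under 0.05 (7.02%), 6 higher and 6 lower. The smallest p was that of miR-877*, with changes of -0.53 at day 1 and 0.46 at day 28 and a difference of 1.00 ± 0.31 (SE, adjusted p = 0.486). let-7b* differed by 1.33 ± 0.49 (SE) and miR-702 by 1.29 ± 0.50, both with changes below 0 at day 1. miR-222 went the other way, from 1.10 at day 1 to -0.13 at day 28, and miR-375 from 0.53 to -0.72. For miR-877* and miR-702 the vehicle means moved more than the exposed means. The mean of miR-877* at days 1 and 28 was 4.90 and 3.96 in vehicle lungs and 4.37 and 4.43 in exposed lungs. That of miR-702 was 4.01 and 2.85 in vehicle lungs and 3.58 and 3.72 in exposed lungs. Vehicle arrays were the dimmer group at day 1 and the brighter group at day 28, and the part of brightness in these differences was not tested.

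For the inflammation miRNAs the changes were, at days 1, 3 and 28 in turn, 0.41, 0.27 and 0.85 for miR-21 and 0.33, 0.27 and 1.14 for miR-146b. They were -0.06, -0.08 and 0.48 for miR-146a and 0.93, -0.19 and 0.75 for miR-155. The change at day 28 exceeded that at day 1 by 0.81 ± 0.46 (SE) for miR-146b, by 0.54 ± 0.25 for miR-146a and by 0.45 ± 0.32 for miR-21, and differed by -0.18 ± 0.43 for miR-155, with limma adjusted p-values of 0.613 to 0.958. miR-135b was above background on none of the 22 arrays of days 1 and 3, where its level reached 2.28 at most, in a vehicle lung of day 1. A difference between days therefore rests on values near the floor, and no fold is given for it.

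Against day 3, limma called 0 of 171, with 3 at an unadjusted p under 0.05 (1.75%). These were miR-93 with a difference of -0.28 ± 0.13 (SE), miR-146a with 0.56 ± 0.27 and miR-155 with 0.94 ± 0.45, each at an adjusted p of 0.999. Without exposed replicate 12 miR-155 was called. The red cell miRNAs miR-144 and miR-486 had changes of 0.46 and 0.56 at day 3 and -0.25 and -0.10 at day 28.

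**Figure D5:**
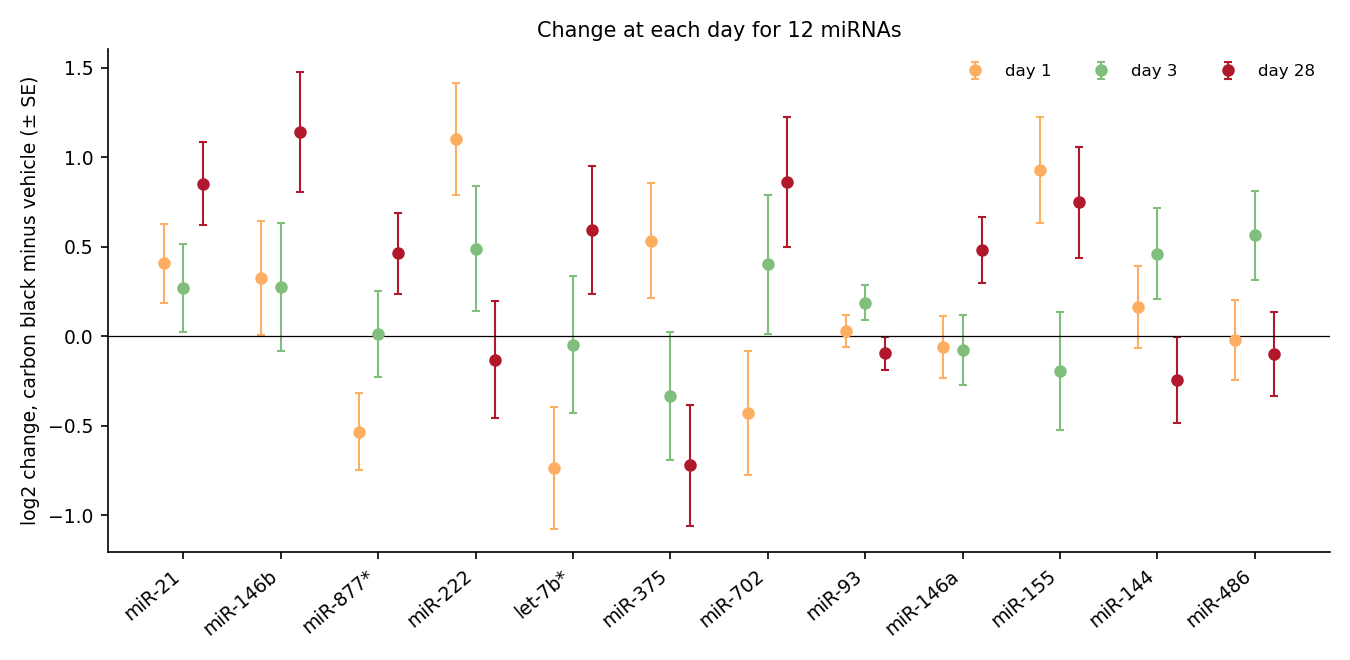
Log2 change (exposed minus vehicle, bars ± SE) at days 1, 3 and 28 for miR-21, miR-146b and the 10 miRNAs with the smallest p for the difference from an earlier day, 5 for each day. miR-877*, let-7b* and miR-702 lie below 0 at day 1 and above 0 at day 28, and miR-222 and miR-375 the reverse. For miR-877* and miR-702 the vehicle means moved more between these days than the exposed means.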

How the data were processed

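Agilent miRNA arrays were hybridised with Cy3-labelled total RNA enriched for small RNA, per the labels' protocols. The scanner files deposited by the authors hold spot intensity on a linear scale from Feature Extraction 10.7.3.1, with the background already subtracted in the processed signal, per the file headers. The authors' deposited series table holds log2 values for 650 miRNAs. At day 28 its columns had correlations of 0.988 to 0.993 with those arrays' median signal in log2, and medians of 5.41 to 5.43, so its scale and direction were read as log2 and brighter as higher. How it was centred is unknown, and it served as an alternative.

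Control spots and spots with outlier flags (2.30%) were left out. The mean over the spots of a probe was scaled so that the 75th percentile over 156 probes was equal on all arrays, raised to 1 where lower and put on a log2 scale, and the brightest probe stood for a miRNA. A miRNA was above background on an array when most unflagged spots of any of its probes were flagged well above background. Viral entries were not tested. The model in limma 3.58.1 (R 4.3.3, with data.table at version 1.17.8) fitted 6 group means to all 33 arrays, with eBayes, an intensity trend and a threshold of 0.05. The script was tested on simulated data. Brightness was compared by exact permutation in scipy 1.17.1. Array replicates are separate mice by the series design only, and p-values measure the spread between arrays. Limma's SEs and intervals rest on a spread pooled over all 6 groups, except in the fit with 1 variance per group.

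Alternatives were another background correction (normexp, offset 50, on the median signal, since the files hold no mean signal), other scalings, the total gene signal, the series table, other filters and floors, slide or scan day as a block, other variance models and leaving out each array. Slide pairs come from the slide on which arrays lay, and the consensus correlation of arrays of a slide was 0.359. The miRNAs named were the 12 higher and 12 lower of smallest p left after dropping those above background on a minority of arrays in both groups, those with groups that did not overlap, those whose share of arrays above background differed by over 0.5, the 5 of smallest p per difference between days, and members of lists. The members and lists were chosen with earlier results of these data known.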

Additional observations from a re-analysis of the deposited data

Results flagged for a closer look

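Of 34 named miRNAs, each checked in the 5 exposed and the 6 vehicle arrays of day 28, 6 values stood apart from the rest of their group, measured as the gap to the nearest array over the range of the group. Chance sets apart about 1 in 20 groups, and 68 were checked. miR-10b was at 6.50 in exposed replicate 20 and at 4.58 to 4.93 in the other exposed arrays, a gap of 0.818 of the range. The same array was apart in miR-1, at 5.74 against 4.14 to 4.48 (0.792). Exposed replicate 23 was apart in miR-199b*, at 7.92 against 8.20 to 8.24 (0.868). Vehicle replicate 32 was apart in miR-375, at 4.73 against 3.59 to 3.86 (0.762). Vehicle replicate 6, the dimmest vehicle array at 633 units, was apart in miR-1196, at 1.52 against 2.90 to 3.52 (0.689), and in miR-18a, at 2.37 against 3.00 to 3.25 (0.707). The part of brightness in these values was not tested.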

How the results depend on the processing

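At day 28 the count of miRNAs called was 0 under the settings not named here. It was 1 with normexp background correction (miR-146b), quantile normalization (miR-21), a floor of 10 (miR-155), no filter on detection (miR-135b), 1 variance per group (miR-21) and without slide 1 (miR-21), a setting chosen after seeing the data. Leaving out 1 array gave 0 to 4, the 4 without exposed replicate 12. For the difference from day 1 the count was 95 with normexp and 119 with no scaling, 1 with all probes in the percentile (miR-222), 1 without the filter (miR-135b), and 0 to 1 leaving out 1 array (miR-702 without vehicle day 1 replicate 5). Under normexp the median change of all tested miRNAs at day 28 moved to 0.27, to -0.28 with all probes in the percentile and to -0.65 with no scaling. For the difference from day 3 the count was 0 to 1 leaving out 1 array (miR-155 without exposed replicate 12). Slide as a fixed or random block and scan day as a block gave 0 calls at day 28. The groups share no replicate number, so pairing was by slide, with slide as a block.

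miRNAs whose groups did not overlap numbered 1 with total gene signal, 0 with no scaling, 1 in the series table and 5 when the filter was dropped, and 3 to 8 leaving out 1 array, with 8 without exposed replicate 12 and 7 without exposed replicate 30. The brightness difference was -0.72 by the median over probes (exact p = 0.0433) and -0.83 to -0.50 leaving out 1 array, with an exact p of 0.0190 without exposed replicate 8 and 0.0476 without vehicle replicate 6. The difference in miRNAs above background was -30.7 to -13.9, with an exact p of 0.0381 without exposed replicate 8.

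Under normexp the change turned positive for miR-335-5p (0.39), miR-676 (0.39), miR-375 (0.30), miR-133b (0.078), miR-25 (0.066), miR-133a (0.25), miR-542-3p (0.37), miR-872 (0.40), miR-210 (0.42), miR-139-3p (0.35), miR-18a (0.49), miR-222 (0.48), miR-93 (0.22) and miR-486 (0.25). With no scaling it turned negative for miR-146a (-0.13), miR-1224 (-0.13), miR-10b (-0.16), miR-877* (-0.15), miR-500 (-0.36), let-7b* (-0.020), miR-7a (-0.32) and miR-1196 (-0.53). In the series table it turned for let-7c (0.077), miR-126-3p (0.083) and miR-1196 (-0.048). miR-1196 also turned with total gene signal (-0.92), quantile normalization (-0.19), the percentile over all probes (-0.16) and a floor of 10 (-0.019). miR-18a turned with a floor of 10 (0.059) and miR-872 with the mean over probes (0.013). Leaving out 1 array, changes ran from -1.22 to 0.019 for miR-139-3p, -0.19 to 0.32 for miR-1196, -0.20 to 0.086 for miR-18a, -0.32 to 0.025 for miR-222 and -0.29 to 0.078 for miR-486. The cause of these turns was not tested. Signal near background limits the dim miRNAs: 395 of 611 mouse miRNAs were above background on no array, and a change in them could not be seen.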
